A study of Mus musculus with 4 samples.

Results

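The genes described are 60 cell cycle genes, 28 that act in DNA replication and entry into it and 32 that act in mitosis, followed in the septal nasal mucosa of young adult and aged mice. They are the genes to which a fixed list of symbols led through the accessions of the array probes. This matching uses no measured value, but the list was chosen with earlier results of these data known. All 60 were found among the 45604 genes tested, through 90 probes: 33 genes had 1 probe, 24 had 2 and 3 had 3. The tissue came from male C57BL/6J mice aged 8 weeks (young adult) or 16 months (aged). Each age was measured on 2 one-color Agilent arrays, and each array carried RNA pooled from 5 mice. The study's methods count fewer mice per age for gene analyses than 2 separate pools would need, and do not say whether the pools of one age share mice. The P values therefore measure the spread between pools, which may in part be technical.

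A dividing cell first copies its DNA and then separates the copies, and the genes for these steps are transcribed in successive waves. Genes of the first wave, at the passage from G1 to S phase, are classic targets of the E2F transcription factors. Genes of the second wave, in G2 and mitosis, are bound through CHR elements and CCAAT boxes in their promoters and are repressed in resting cells by the DREAM complex. In the olfactory epithelium, dividing cells are mostly basal cells and neuronal progenitors, which replace olfactory receptor neurons (ORNs) throughout life, and dividing cells also occur in the stroma, vessels and marrow of the septum.

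The defining markers of the tissue were present. *Omp*, of mature ORNs, had expression levels (normalized probe intensities) of 300830 and 286060 in young adult and 317840 and 332590 in aged mice, and *Krt5*, of basal cells, had 14711 and 15152 in young adult and 10687 and 10542 in aged mice. Between 63.1 and 76.8% of the spots of an array were well above background. One slide held the first array of each age, and the second arrays were on separate slides. The arrays did not group by age over all genes: the correlation, which is across genes, was 0.987 within each age and ranged from 0.982 to 0.989 between ages.

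Promoter sequence was not used to choose the genes, and a few stretches are shown for the motifs tied to the 2 waves. The stretches below come from RefSeq promoter windows (GRCm38.p6, 250 bases before to 50 after each gene's start), read 5′ to 3′ along the gene's strand and ending before the outermost start of the gene, with motif letters in capitals. The first 5 were picked from the 6 that hold CHR letters among the 8 mitosis genes that fell in aged mice and have a promoter in the table, *Birc5* and *Cenpe* holding none. CHR letters are here TTTGAA or TTCGAA, read on either strand, and some stretches also hold CCAAT boxes (CCAAT, or ATTGG on the other strand). The last 2 belong to helicase genes and hold E2F letters (TTTCCCGC, TTTGGCGC, TTTCGCGC or TTTGCCGC, on either strand). Capitals that run together are motifs that overlap.
Ccnb2, chr9:70421642-70421731, minus strand, 88 to 177 bases before the start: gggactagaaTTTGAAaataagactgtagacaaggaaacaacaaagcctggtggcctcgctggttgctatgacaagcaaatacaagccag
Cdc20, chr4:118437344-118437433, minus strand, 1 to 90 bases before the start: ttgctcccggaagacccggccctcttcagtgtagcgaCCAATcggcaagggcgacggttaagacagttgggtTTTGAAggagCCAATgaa
Ube2c, chr2:164769831-164769920, plus strand, 9 to 98 bases before the start: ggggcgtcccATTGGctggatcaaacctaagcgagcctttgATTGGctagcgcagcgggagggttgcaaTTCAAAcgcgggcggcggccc
Top2a, chr11:99024299-99024388, minus strand, 110 to 199 bases before the start: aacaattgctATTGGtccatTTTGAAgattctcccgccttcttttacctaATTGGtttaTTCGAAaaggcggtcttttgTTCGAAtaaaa
Mki67, chr7:135716466-135716555, minus strand, 87 to 176 bases before the start: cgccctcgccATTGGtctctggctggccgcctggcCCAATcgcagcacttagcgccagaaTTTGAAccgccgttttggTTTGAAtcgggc
Mcm5, chr8:75109346-75109435, plus strand, 74 to 163 bases before the start: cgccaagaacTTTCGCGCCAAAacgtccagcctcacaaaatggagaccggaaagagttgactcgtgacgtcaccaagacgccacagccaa
Mcm6, chr1:128359736-128359825, minus strand, 31 to 120 bases before the start: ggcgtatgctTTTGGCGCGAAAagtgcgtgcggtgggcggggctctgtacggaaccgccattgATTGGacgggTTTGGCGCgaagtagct

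Of the 60 genes, 49 had a promoter in the table, 23 of replication and 26 of mitosis, and a gene was counted if any of its windows held the letters. CHR letters were in 19 of the 26 mitosis promoters (73.1%) and in 6 of the 23 replication promoters (26.1%), against 21.7% of the promoters of all 27025 genes in the table. E2F letters were in 10 of the 23 replication promoters (43.5%) and in 1 of the 26 mitosis promoters (3.85%), that of *Cdk1*, against 2.6% of all. CCAAT boxes were in 73.1% of the mitosis and 65.2% of the replication promoters, against 41.1% of all. Genes of the same processes outside the 60 gave 71.8% for CHR letters among 39 other mitosis genes and 29.6% for E2F letters among 27 other replication genes. E2F letters were in 12.8% of these other mitosis promoters, and CHR letters in 18.5% of these other replication promoters. A match of letters is a description of the sequence and not a measured binding site.

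**Figure D1:**
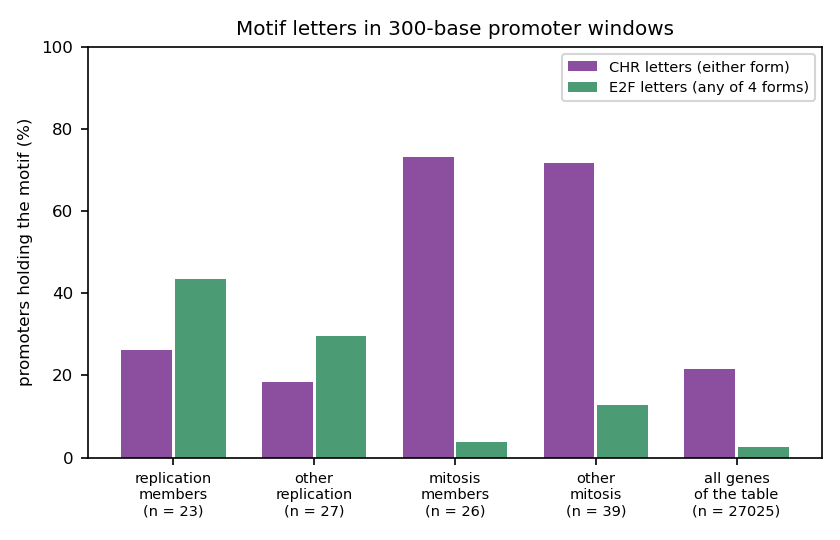
Share of promoters (%, vertical axis) that hold CHR or E2F letters in the 300-base window, by gene set, with the number of promoters under each pair of bars. CHR letters stand at 73.1% in mitosis genes and 26.1% in replication genes, and E2F letters at 3.85 and 43.5%.

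The genes that fell in aged mice were genes of mitosis. Of the 32 mitosis genes, 11 (34.4%) passed the test, all 11 of them lower in aged mice, against a background of 2.33% of all genes called lower and 1.65% called higher in aged mice. Of the 28 replication genes, 0 passed in either direction. Calls required P below 0.05 and FDR below 0.25 in limma's test, the FDR being Benjamini-Hochberg adjusted over the 45604 genes. The median log2 difference, aged minus young adult, was -0.45 over the mitosis genes (0.734-fold) and -0.17 over the replication genes (0.891-fold), against 0.01 over all genes. The difference between the 2 sets was not tested. With 2 arrays per age, an exact permutation test of 1 gene could not give a two-sided p below 0.333, so the calls rest on the spread that limma shares across genes, and the lowest FDR of any gene was 0.0945. With any one of the 4 arrays left out, 0 genes of either set were called in limma, and 14 to 18 mitosis and 1 to 4 replication genes were lower at an unadjusted P below 0.05, against 3.70 to 6.44% of all genes. The number of calls also moved with the processing, from 10 to 23 mitosis genes and from 0 to 11 replication genes over the other background corrections, normalizations, probe choices and the intensity trend tried, while the share of all genes called lower moved from 1.81 to 12.4%.

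Weaker criteria counted more genes of both sets. At an unadjusted P below 0.05, 22 mitosis genes and 8 replication genes were lower and 1 gene, *Prim1* of replication, was higher, against 7.08% of all genes lower and 6.05% higher. The aged pools were both lower than either young adult pool in 27 of 32 mitosis genes (84.4%) and 20 of 28 replication genes (71.4%), against 21.8% of all genes. Both aged pools lay above both young adult pools in 0 mitosis genes and 3 replication genes (*Pcna*, *Prim1* and *Lig1*), against 24.2% of all genes. With a mean level of at least 100 and a fold change of at least 1.5 also required, 3 mitosis genes remained, *Ccnb2*, *Birc5* and *Top2a*, against 1.15% of all genes lower by that rule. In bulk RNA, fewer dividing cells and less of each transcript per cell cannot be told apart.

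**Figure D2:**
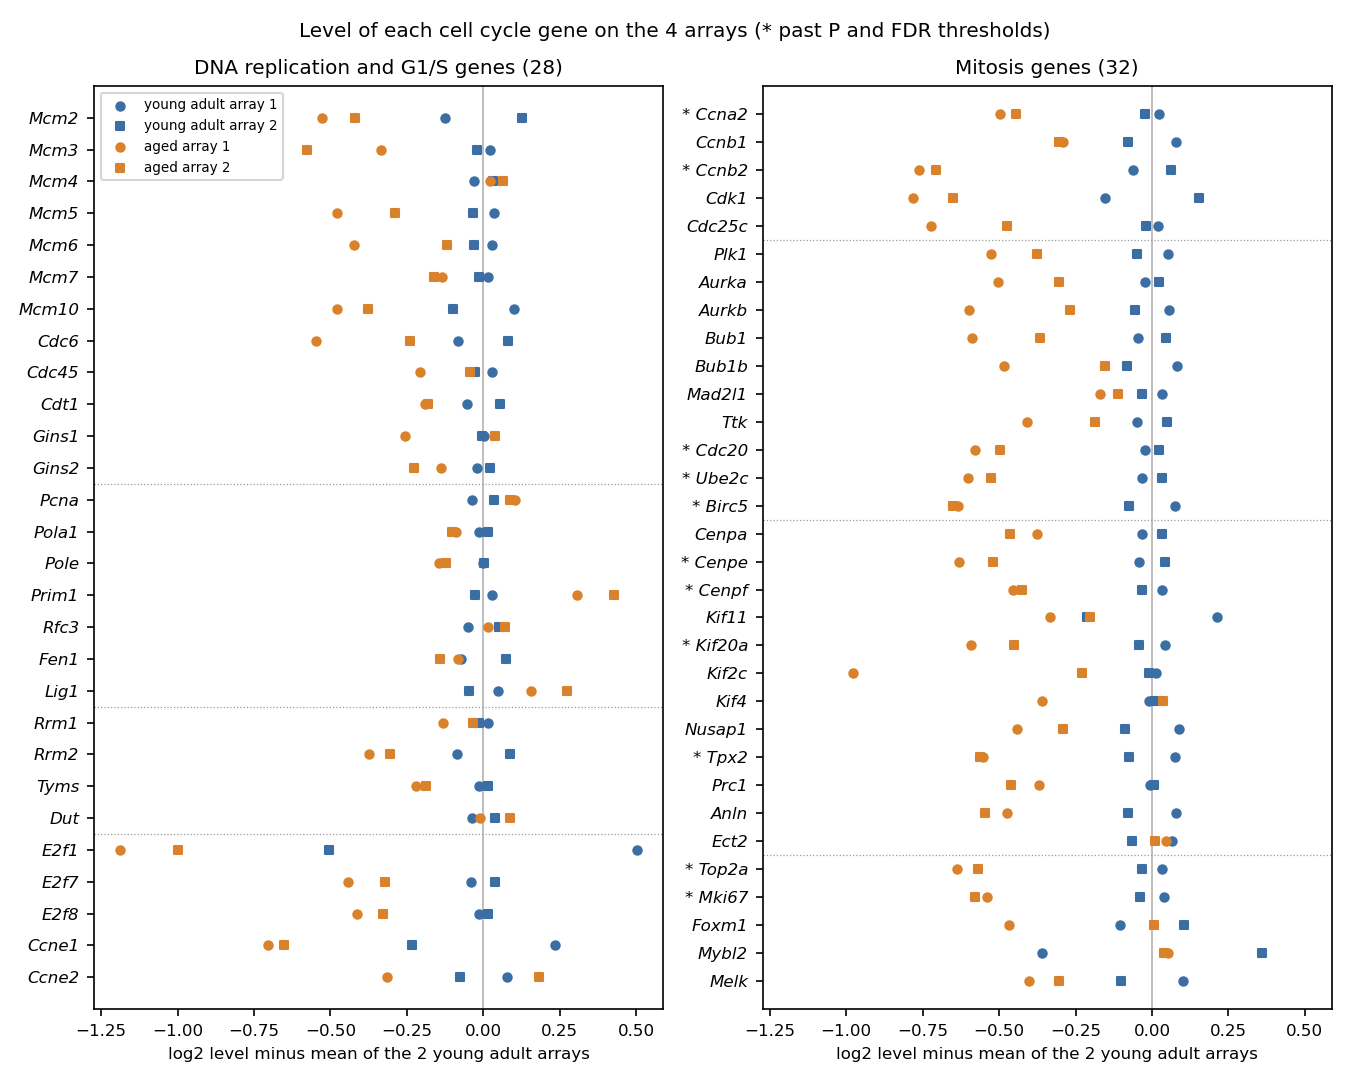
Level of each of the 60 genes on each array, as log2 level minus the mean of the 2 young adult arrays (horizontal axis), with genes in rows, dotted lines between roles and an asterisk on called genes. Young adult arrays are blue and aged arrays orange, circles mark array 1 and squares array 2. In the mitosis panel 27 of 32 genes have both aged arrays to the left of both young adult arrays.

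Of the 5 genes of cyclins, their kinase and its activator, 2 fell, and the size of the difference varied within the role. *Ccnb2*, a B-type cyclin that activates CDK1 at entry into mitosis, had levels of 838 and 914 in young adult and 516 and 536 in aged mice. Its log2 difference was -0.73 ± 0.09 (SE, n = 2 arrays per age, limma, FDR = 0.197). Neither aged array reached the lower young adult array, as in any gene called lower. *Ccna2*, the cyclin of S and G2 phase, had levels of 460.1 and 445.9 in young adult and 320.9 and 332.7 in aged mice and fell by 0.47 on the log2 scale (SE 0.08, limma, FDR = 0.229). *Cdk1*, the kinase that drives mitosis, had levels of 161 and 199 in young adult and 104 and 114 in aged mice. Its difference, -0.72 ± 0.15 (SE), was close to that of *Ccnb2*, but its young adult arrays lay farther apart and it did not pass (limma, FDR = 0.264). *Cdc25c*, the phosphatase that activates CDK1, had a log2 difference of -0.60 and an FDR of 0.262 in limma, and only 1 aged array measured it well above background. *Ccnb1*, the other B-type cyclin, had the smallest difference of these 5 genes at -0.30 (limma, FDR = 0.367). Its 3 probes gave -0.10, -0.53 and -0.27, and the probe with -0.10 was well above background on neither aged array. For all 5 genes the aged arrays lay below the young adult arrays, against 21.8% of all genes, and the median log2 difference of the 5 was -0.60.

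The 10 genes of mitotic kinases, the spindle checkpoint and the anaphase-promoting complex (APC/C) had a median log2 difference of -0.44. For all 10 the aged arrays lay below the young adult arrays, against 21.8% of all genes. Of the 10, 3 were called. *Birc5*, which encodes survivin, a subunit of the chromosomal passenger complex, had levels of 465 and 419.9 in young adult and 285 and 281 in aged mice, a log2 difference of -0.64 ± 0.09 (SE, limma, FDR = 0.21). *Ube2c*, the ubiquitin-conjugating enzyme of the APC/C, had 436 and 456 in young adult and 294 and 309 in aged mice, a log2 difference of -0.56 ± 0.08 (SE, limma, FDR = 0.21). *Cdc20*, the activator of the APC/C at anaphase, had 739 and 763 in young adult and 503 and 532 in aged mice, a log2 difference of -0.54 ± 0.08 (SE, limma, FDR = 0.214). In all 3 genes the levels of the 2 arrays of an age lay close together and the ages did not overlap, as in any gene called here. For *Cdc20* this holds for the average of 2 probes, which had 1055 and 922, and 518 and 631, on the young adult arrays. Both *Cdc20* probes were lower in aged mice, with log2 differences of -0.46 and -0.62. The 2 *Birc5* probes gave -0.52 and -0.77, and the probe with -0.77 was well above background on only 1 aged array.

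The other 7 genes of that role did not pass. *Plk1*, a kinase of centrosome maturation and mitotic exit, had 838 and 781 in young adult and 562 and 623 in aged mice (log2 difference -0.45, limma, FDR = 0.278). *Aurka* and *Aurkb*, the Aurora kinases, had log2 differences of -0.40 and -0.43. The checkpoint genes *Bub1*, *Bub1b* and *Mad2l1* had log2 differences of -0.48, -0.32 and -0.14, and *Mad2l1* had the smallest of the role, with levels of 478 and 457 in young adult and 415 and 433 in aged mice. *Ttk*, the checkpoint kinase also called MPS1, was well above background on the young adult arrays through some of its 3 probes but on neither aged array, so it has no firm level in aged mice.

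Of the 12 genes of centromeres, the spindle, kinesins and cytokinesis, 4 fell, with a median log2 difference of -0.43 over the role. *Cenpe*, the kinesin that links kinetochores to microtubules, had levels of 1061 and 1125 in young adult and 705 and 762 in aged mice, a log2 difference of -0.58 ± 0.09 (SE, limma, FDR = 0.221). *Tpx2*, which activates Aurora A on the spindle, had 211 and 189 in young adult and 136 and 135 in aged mice (-0.56 ± 0.09, SE, log2, limma, FDR = 0.232). *Kif20a*, a kinesin of the central spindle, had 302 and 285 in young adult and 195 and 214 in aged mice (-0.52 ± 0.10, SE, log2, limma, FDR = 0.246). *Cenpf*, a kinetochore protein that builds up in G2, had 304 and 291 in young adult and 217 and 221 in aged mice (-0.44 ± 0.08, SE, log2, limma, FDR = 0.24). None of these 4 had overlapping arrays, which the call itself requires.

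A further 3 genes of this role lay just outside the FDR limit. They were *Anln*, the actin-binding anillin of the cleavage furrow, with a log2 difference of -0.51 and an FDR of 0.252, *Prc1*, a bundler of spindle microtubules, with -0.42 and 0.255, and *Cenpa*, the centromeric histone, with -0.42 and 0.26 in limma. *Nusap1*, which also binds spindle microtubules, had a log2 difference of -0.37. Of the 2 *Anln* probes, 1 was well above background on no array, and the other gave a log2 difference of -0.53. *Kif2c*, a microtubule-depolymerizing kinesin, was well above background on 1 young adult array and on neither aged array, and so has no firm level in either age. For *Kif11*, *Kif4* and *Ect2* the arrays of the ages overlapped. *Ect2*, which activates RhoA for cytokinesis, had 385 and 352 in young adult and 381 and 371 in aged mice, and its 2 probes had opposite signs, 0.21 and -0.16.

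The last role of mitosis held genes of chromosome structure and regulators of proliferation. *Top2a*, the topoisomerase that untangles sister chromatids, had levels of 573 and 547 in young adult and 359 and 377 in aged mice, with a log2 difference of -0.61 ± 0.08 (SE, limma, FDR = 0.206). Its 2 probes gave -0.61 and -0.60. *Mki67*, the Ki-67 antigen that coats mitotic chromosomes and is widely used to mark cycling cells, had 1403 and 1327 in young adult and 940 and 913 in aged mice. The log2 difference of *Mki67* was -0.56 ± 0.08 (SE, limma, FDR = 0.21), 0.679-fold in aged mice. *Melk*, a kinase of proliferating cells, had a log2 difference of -0.35 (limma, FDR = 0.369). *Foxm1* and *Mybl2*, transcription factors that activate the mitotic wave, had log2 differences of -0.23 and 0.05, and the ages overlapped in both. The brighter of the 2 *Foxm1* probes, the one well above background on all arrays, gave 337 and 341 in young adult and 307 and 303 in aged mice, without overlap (log2 difference -0.15). *Mybl2* was read by 2 probes, one of which was well above background on no array, and the other gave levels of 594 and 663 in young adult and 539 and 612 in aged mice, a log2 difference of -0.13.

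Among the replication genes, those that load and form the helicase had mostly negative differences. Of the 12, 11 had a negative log2 difference, 10 had both aged arrays below both young adult arrays, and the median was -0.23. *Mcm2*, of the MCM2-7 helicase ring, had levels of 437 and 520 in young adult and 330 and 356 in aged mice, a log2 difference of -0.47 ± 0.13 (SE, limma, FDR = 0.319). *Mcm3*, *Mcm5*, *Mcm6* and *Mcm7* of the same ring had -0.46, -0.38, -0.27 and -0.15. The brighter *Mcm6* probe gave -0.12, and the dimmer, well above background on only 1 aged array, gave -0.42. *Mcm4*, whose product is also in the ring, had 2418 and 2525 in young adult and 2507 and 2586 in aged mice, a log2 difference of 0.04 ± 0.08 (SE) with overlapping arrays. Thus 5 of the 6 ring genes measured had negative differences and *Mcm4* did not, each gene with its own probes. *Mcm10*, which helps to activate the helicase, had -0.43, and the loading factors *Cdc6* and *Cdt1* had -0.39 and -0.19. *Cdc45*, *Gins1* and *Gins2*, which join the active helicase, had -0.13, -0.11 and -0.18. The 2 probes of *Gins2* had opposite signs, 0.12 and -0.49.

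The genes of DNA polymerases, the sliding clamp and Okazaki fragment processing did not share that direction. Their median log2 difference was 0.04, with 3 of 7 negative and 4 positive. *Pcna*, the sliding clamp, had levels of 6238 and 6554 in young adult and 6867 and 6798 in aged mice, a log2 difference of 0.10 ± 0.08 (SE, limma, FDR = 0.662). *Prim1*, the primase subunit that starts each new strand, had 1312 and 1260 in young adult and 1590 and 1729 in aged mice. Its log2 difference, 0.37 ± 0.09 (SE), was the largest positive one among the 60 genes and did not pass (limma, FDR = 0.297). *Lig1*, the ligase that joins Okazaki fragments, had 0.21, and *Fen1*, the nuclease that trims them, had -0.11. *Pola1* and *Pole*, catalytic subunits of polymerases alpha and epsilon, had -0.10 and -0.13. *Rfc3*, of the clamp loader, had 772 and 828 in young adult and 808 and 840.2 in aged mice, with a log2 difference of 0.04.

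Of the genes of nucleotide supply, *Rrm2*, the regulated subunit of ribonucleotide reductase, had levels of 749 and 844 in young adult and 613 and 643 in aged mice, a log2 difference of -0.34 ± 0.10 (SE, limma, FDR = 0.35). *Rrm1*, its large subunit, had a log2 difference of -0.08, *Tyms*, the thymidylate synthase, had -0.20, and *Dut*, the dUTPase, had 0.04 with overlapping arrays.

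The G1/S regulators held the largest difference of all 60 genes and also the largest SE. *E2f1*, the activating E2F factor, had levels of 738 and 367 in young adult and 228 and 260.3 in aged mice. The log2 difference was -1.09 ± 0.40 (SE, limma, FDR = 0.41), and it was -1.69 on the shared slide and -0.49 between the other two arrays. Young adult array 1 was also the higher one for *Ccne1*, the cyclin E that starts S phase, with 361 and 261 in young adult and 188 and 195 in aged mice (log2 difference -0.68, limma, FDR = 0.336). The repressive factors *E2f7* and *E2f8* had close levels within each age and log2 differences of -0.38 and -0.37. For *E2f7* this holds for the average of 2 probes, which gave -0.60 and -0.16. The brighter *E2f7* probe had 496 and 404 in young adult and 285 and 305 in aged mice, and in the dimmer probe the ages overlapped. *E2f8* had 175 and 179 in young adult and 133 and 141 in aged mice, with an FDR of 0.274 in limma, the lowest among the replication genes. *Ccne2*, the other cyclin E, was not well above background on any array.

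**Figure D3:**
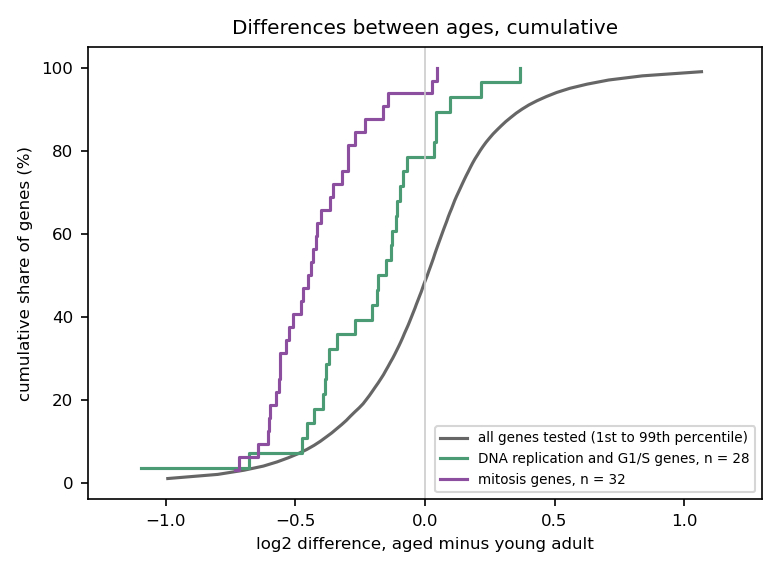
Cumulative share of genes (%, vertical axis) by log2 difference, aged minus young adult (horizontal axis), for all genes tested (grey), 28 replication genes (green) and 32 mitosis genes (purple). The mitosis curve lies left of 0 for 30 of 32 genes, the replication curve for 22 of 28.

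The shared slide and the other two arrays gave the same order of the sets. Within the slide that held both ages the median log2 difference was -0.55 for mitosis and -0.22 for replication genes, and between the other two arrays it was -0.40 and -0.18. These are values of 1 array per age, with no test. The level of aged array 1 lay lower than that of aged array 2 in both sets: the median deviation from each gene's mean was -0.29 and -0.16 for mitosis and -0.11 and -0.07 for replication genes, in log2. The young adult arrays had 0.25 and 0.22 for mitosis and 0.09 and 0.09 for replication genes.

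**Figure D4:**
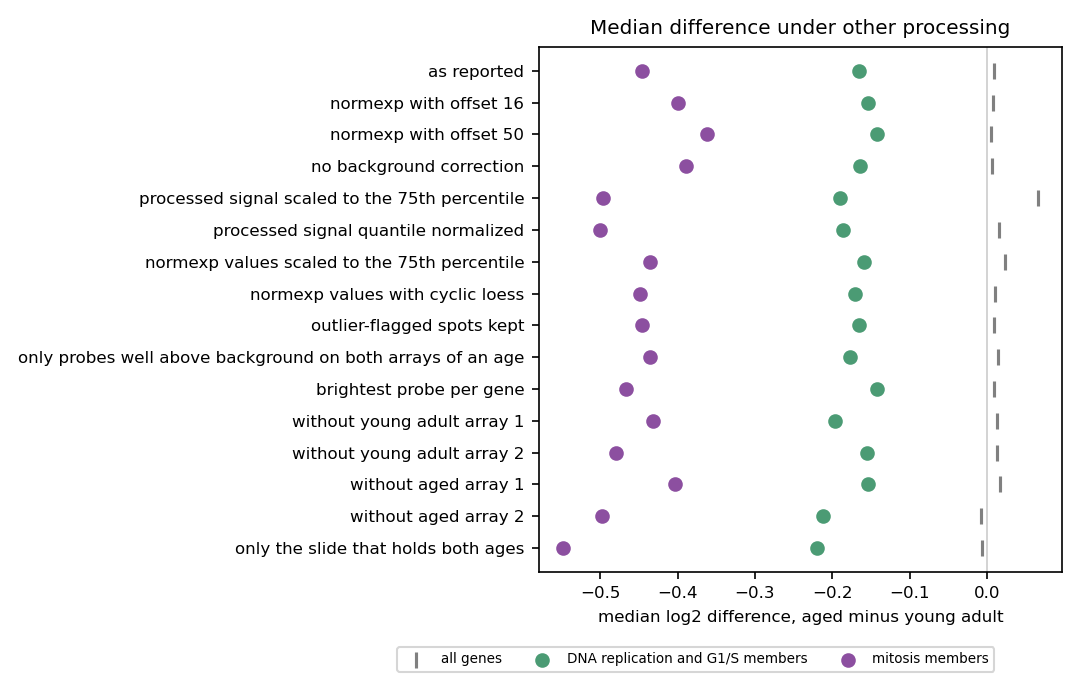
Median log2 difference, aged minus young adult (horizontal axis), of replication genes (green), mitosis genes (purple) and all genes (grey) as reported and under other processing (rows). In each row the mitosis median lies below the replication median, by 0.22 to 0.33.

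Cell cycle genes outside the 60 were described from lists of the same processes. Of 48 other mitosis genes, 3 fell (6.25%), against 34.4% of the 32 mitosis genes above and 2.33% of all genes called lower. In limma, 17 of the 48 were lower at an unadjusted P below 0.05 and 1 was higher, against 7.08 and 6.05% of all genes. Without overlap of the ages, aged mice were lower in 36 (75%) and higher in 1, against 21.8 and 24.2% of all genes. Other background corrections, normalizations, probe choices and the intensity trend called 3 to 22 of the 48 lower. Negative differences were seen in 40 of the 48, against 22129 of all 45604 genes, and the median log2 difference was -0.26. The 3 genes that fell were *Cdca5* (-0.71), a protector of sister chromatid cohesion, *Pbk* (-0.67), a mitotic kinase, and *Ncaph* (-0.64), a condensin subunit. Their FDRs were 0.208, 0.201 and 0.21 in limma. Of 35 other replication genes, 0 passed in limma and 4 were lower at an unadjusted P below 0.05, against 7.08% of all genes. Negative differences numbered 19 among these 35, and the median was -0.03. Of 25 genes of cyclin D, the RB family and CDK inhibitors, 2 fell (8%), and the median was -0.01. These 2 were *Ccnd2*, a D-type cyclin of G1, with a log2 difference of -0.64 (limma, FDR = 0.196) and *E2f2*, with -0.61 (limma, FDR = 0.206). *Cdkn1a*, the p53-induced inhibitor, had levels of 242 and 204 in young adult and 213 and 225 in aged mice. *Cdkn2a*, the inhibitor p16 and p19 locus, was well above background on 1 array of each age.

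Markers of several cell types that can divide or that share the tissue also fell, and their part in the differences of the cell cycle genes was not tested. Among 11 markers of basal cells and neuronal progenitors, *Krt5* and *Kit* fell (log2 -0.49 and -0.60), the median was -0.21, and the summed level was 38396 and 38350 in young adult and 32419 and 31798 in aged mice. *Trp63*, of horizontal basal cells, had a log2 difference of 0.05 and *Lgr5*, of globose basal cells, one of 0.37 (limma, FDR = 0.258). Of 9 markers of immature ORNs, *Dpysl3* fell (-0.40), 8 had a negative difference and the median was -0.31, with a summed level of 82633 and 81041 in young adult and 67381 and 66644 in aged mice. All 11 markers of mature ORNs had both aged arrays above both young adult arrays, against 24.2% of all genes. Their median was 0.15, and *Stoml3* rose (0.43).

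Stromal, vessel and granulocyte markers were also lower. Of 8 osteoblast markers, 6 fell, with a median log2 difference of -0.91 and a summed level of 31390 and 29120 in young adult and 15838 and 15079 in aged mice. Of 8 fibroblast markers 4 fell (median -0.50), and the summed level of the 8 was 250120 and 225520 in young adult and 126120 and 118070 in aged mice. The 4 were *Col1a1*, *Col1a2*, *Col3a1* and *Lum*, with log2 differences of -1.98, -1.52, -1.97 and -0.70. In the sum, *Col1a2* had 99626 and 90141 in young adult and 34475 and 31828 in aged mice. The others, *Dcn*, *Fbln1*, *Pdgfra* and *Mfap5*, did not pass, with -0.19, -0.19, -0.29 and -0.30. Of 7 endothelial markers 4 fell (median -0.59), with sums of 12663 and 12531 in young adult and 7964 and 8395 in aged mice, and of 8 chondrocyte markers 2 fell (median -0.31), with *Matn1* and *Matn3* well above background on no array. Of 10 granulocyte markers 4 fell, *Ngp*, *Ltf*, which nasal glands also make, *S100a8* and *S100a9* (median -0.45). The sums were 278510 and 267380 in young adult and 174650 and 165140 in aged mice. Most of each sum was *Ltf*, with 265970 and 254070 in young adult and 167850 and 158250 in aged mice. *Ms4a3* was well above background on no array. Over the 6 granulocyte markers well above background on all 4 arrays the median was -0.59. The other granulocyte markers well above background on 1 or more arrays of each age did not pass. Their log2 differences were -0.17 for *Elane*, -0.18 for *Mpo*, -0.40 for *Prtn3*, -0.50 for *Camp* and 0.04 for *Ctsg*. None of 9 erythroid markers passed in limma (0 at an unadjusted P below 0.05, median -0.22), with *Rhag* well above background on no array. Of 9 B cell precursor markers *Vpreb3* rose (median 0.22) and *Rag1*, *Rag2* and *Igll1* were well above background on no array. Over the 5 B cell precursor markers well above background on all 4 arrays the median was -0.02. Of 6 sustentacular markers *Cyp1a2* rose (median 0.19), and none of 7 ciliated cell markers passed in limma (1 at an unadjusted P below 0.05, median -0.18).

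**Figure D5:**
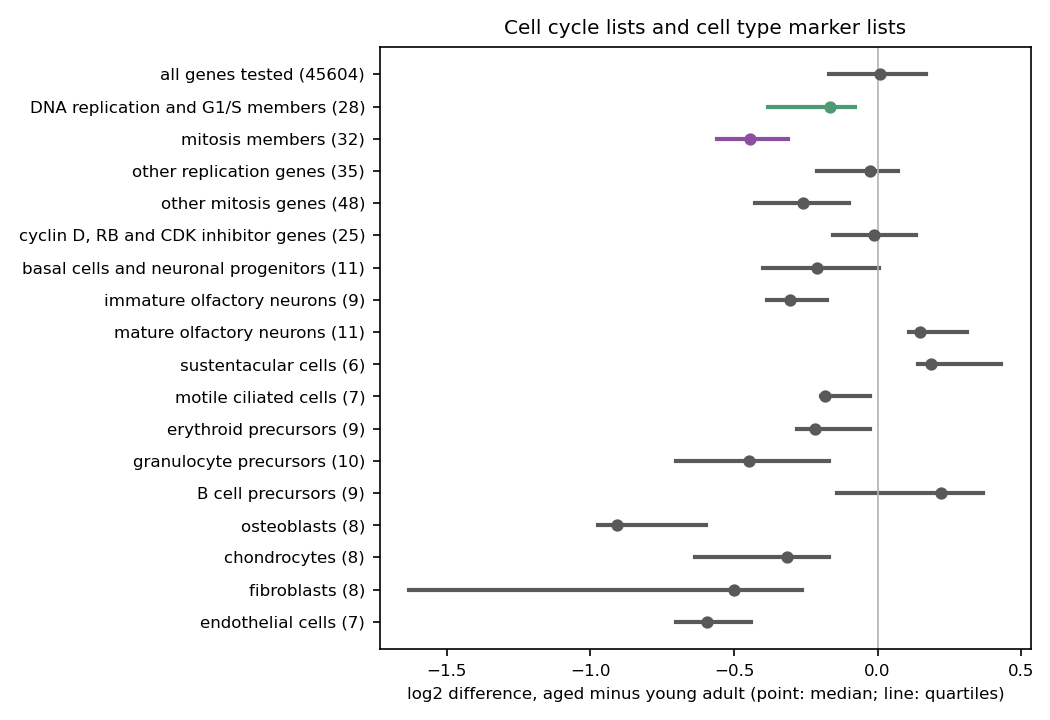
Median (point) and quartiles (line) of the log2 difference, aged minus young adult (horizontal axis), for the replication genes (green), the mitosis genes (purple), all genes, other cell cycle lists and cell type marker lists, with the number of genes in brackets. The mitosis genes have a median of -0.45, close to those of the granulocyte (-0.45) and fibroblast (-0.50) markers. Over the 6 granulocyte markers well above background on all 4 arrays the median is -0.59.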

How the data were processed

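RNA of septal nasal mucosa was measured on 4 Agilent arrays, 2 per age. Per the labels, the authors extracted and labelled the RNA and scanned the arrays, and the spot values came from Feature Extraction 11.0.1.1. The deposited values used here are the median spot intensity and the median local background intensity, not normalized between arrays. The deposited table of the series repeats the scanner's processed intensity at each of 62976 spots and was used only as an alternative. A label naming silica and lung fits neither titles nor methods and was not used. The study counts fewer mice per age for gene analyses than 2 separate pools need.

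The analysis used R 4.3.3 with limma 3.58.1, whose normexp method (offset 0) removed the local background. Control and outlier-flagged spots were left out, spots of a probe averaged, arrays quantile normalized, and probes of a gene averaged on the log2 scale. Symbols came from the RefSeq table of GRCm38.p6 by accession, for 32994 of 56605 probes. lmFit and eBayes were run on all 4 arrays without covariates, and the fit was tested on simulated data. The number of arrays limits the precision. Members and gene lists were chosen with earlier results of these data known. Named genes are those called, the largest and the smallest difference in each role, and *Mki67*; others were named after their values were seen. Motifs were searched in RefSeq promoter windows on both strands. Same-numbered arrays did not deviate together (r = -0.08, across genes). Alternatives tried were other background corrections, normalizations and probe choices, an intensity trend, the replicate number as a block, the shared slide alone, each array left out and other call limits.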

Additional observations from a re-analysis of the deposited data

How the results depend on the processing

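The median of the mitosis genes stayed below that of the replication genes under all alternatives that gave medians, and 28 to 31 of the mitosis and 20 to 23 of the replication genes had negative differences. The number of calls was less stable. Mitosis and replication genes called lower numbered 17 and 2 with a normexp offset of 16, 20 and 8 with an offset of 50, 20 and 6 without background correction, 17 and 4 with the processed signal quantile normalized, 15 and 1 with cyclic loess, 23 of 31 and 10 of 27 with dim probes left out, 20 and 11 with an intensity trend, and 22 and 8 with P alone. They numbered 0 and 0 with an FDR below 0.05, and 3 and 0 with the level and fold limits. Over all genes, those called lower and higher were 1691 and 1298 with offset 16, 2475 and 2107 with offset 50, 2239 and 1788 without background correction, 2343 and 2029 with the processed signal quantile normalized, 3671 and 3578 of 29495 with dim probes left out, 3518 and 3612 with the trend, 3230 and 2760 with P alone, 524 and 371 with the level and fold limits, and 0 and 0 with an FDR below 0.05. The causes were not tested.

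With the replicate number as a block, 0 genes were called lower or higher, over all genes and in either set (lowest FDR 0.433 in limma). At an unadjusted P below 0.05 in that fit, 19 mitosis and 6 replication genes, and 6.48% of all genes, were lower. This block joins the first arrays, which share a slide, and the second arrays, which lie on separate slides. With each array left out in turn, 0 genes were called, over all genes (0 to 0 in each direction) and in the mitosis set (0 to 0), and the lone array was assumed to vary like the others. The slide as a random block could not be fitted with 4 arrays.

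The replication median was -0.14 with offset 50, -0.19 with the processed signal scaled to the 75th percentile, -0.14 with the brightest probe per gene, -0.22 on the shared slide and -0.21 to -0.15 with each array left out. The mitosis median was -0.36 with offset 50 and -0.55 on the shared slide. Differences near 0 changed sign: *Rfc3* ranged from -0.0076 to 0.10 and *Dut* from -0.012 to 0.086 with each array left out. *Ect2* ranged from -0.035 to 0.091 and was -0.018 on the shared slide. *Mybl2* ranged from -0.31 to 0.40, and was -0.028 with offset 16, -0.046 with offset 50, -0.10 without background correction, -0.13 with dim probes left out and -0.13 with the brightest probe. Dim genes (*Ccne2*, *Ttk*, *Kif2c*) have no firm level.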
